A study of Mus musculus with 4 samples.

Results

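The genes described here encode the subunits of the ionotropic and metabotropic receptors for glutamate and of the GABA-A and GABA-B receptors. They are the protein-coding rows of the deposited gene table whose symbol begins with Gria, Grik, Grid, Grin, Grm, Gabr or Gabbr followed by a subunit number or letter, which gave 44 of 26433 genes. They comprise 4 AMPA, 5 kainate, 2 delta and 7 NMDA receptor subunits, 8 metabotropic glutamate receptors, 16 GABA-A subunits and 2 GABA-B subunits. Gabra6 was not analysed here. Gabrp and Gabrq carry letters that the choice does not take.

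The study placed human SERPINA3, a gene for a secreted serine protease inhibitor, in mice and compared their embryonic cortex with that of WT littermates. Bulk RNA sequencing measured RNA of the cerebral cortex, called telencephalic tissue in the methods, at embryonic day 15 (E15). Of the 4 libraries, 2 came from conditional knock-in (cKI f/+) mice, named KI2 and KI3 in the table, and 2 from WT mice, named WT1 and WT3. WT1 held 17615212 counted reads, WT3 17423512, KI2 17736663 and KI3 18119444. The cKI f/+ animals carry 1 Rosa26 allele with a CAG promoter, a STOP cassette between loxP sites and 3×flag-tagged human SERPINA3, together with a Nestin-Cre transgene. WT animals are labelled wildtype, and the strain of both groups is labelled C57BL/6, although the knock-in founders were bred with B6D2F2 mice. Cre under the Nestin promoter acts in neural progenitors and so reaches their neuronal and glial progeny, while cells of other origin keep the cassette. The human transgene was not analysed here, so the genotype rests on the labels. The labels do not say whether a library is a single embryo, and the p-values measure the spread between these libraries.

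Before any receptor gene is compared, the groups must be seen to differ in another respect. Xist, the transcript of the inactive X chromosome, was counted 13223 times in KI2 and 11882 times in KI3, against 5 times in each of WT1 and WT3. Kdm5d, on chromosome Y, was counted 951 times in WT1 and 918 times in WT3 and had 0 reads in KI2 and in KI3. Sex-linked transcripts therefore separated the groups in the same way as genotype, and the contributions of sex and genotype to any difference below cannot be told apart. The receptor genes on chromosome X are Gria3, Gabra3 and Gabre.

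Glutamate is the main excitatory transmitter of the cortex and GABA the main inhibitory one. AMPA, kainate and NMDA receptors are cation channels built of 4 subunits, GABA-A receptors are chloride channels built of 5, and metabotropic and GABA-B receptors signal through G proteins. In the embryonic cortex many of these receptors are present on progenitors and migrating neurons before synapses mature, and GABA commonly depolarizes immature neurons because their chloride content is high.

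Levels are given in TPM, in which counts are divided by the summed length of a gene's exons and scaled to the same total in every library, so that different genes can be compared. By this measure 16 of the 44 genes averaged at least 5 TPM over the 4 libraries, 17 lay between 1 and 5 TPM, and 11 lay under 1 TPM. Grik5 was highest, at 180, 174, 167 and 171 TPM in KI2, KI3, WT1 and WT3, above 94.5% of the protein-coding genes of the table with a known length. Gabbr1 followed at 140, 124, 142 and 123 TPM in the same order of libraries. Every library of Grik5 lay above every library of Gabbr1, and Gabbr1 likewise lay above Grik3. Below Grik3 the order became less sharp: over the 4 libraries, 33 of the 43 neighbouring pairs in the ranking had overlapping ranges, among them Gria1 with Gria2 and Gria3 with Gria4.

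Summed by class, kainate receptor subunits came to 266 ± 15.3 TPM (SD, n = 2) in cKI f/+ and 260 ± 0.215 in WT mice. GABA-B subunits came to 139.6 ± 12.7 and 139.3 ± 12.7 TPM, AMPA subunits to 114 ± 14.5 and 133 ± 2.61 TPM, and the GABA-A subunits together to 69.4 ± 3.94 and 76.7 ± 7.43 TPM. NMDA subunits were lower at 23.1 ± 3.34 and 23.1 ± 1.29 TPM and metabotropic glutamate receptors at 16.5 ± 0.0941 and 17.2 ± 0.200 TPM. The E15 cortex thus held more kainate than AMPA subunit RNA per length in each of the 4 libraries, and more AMPA than NMDA subunit RNA. In tissue RNA, fewer cells of a type and less RNA per cell cannot be told apart.

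**Figure D1:**
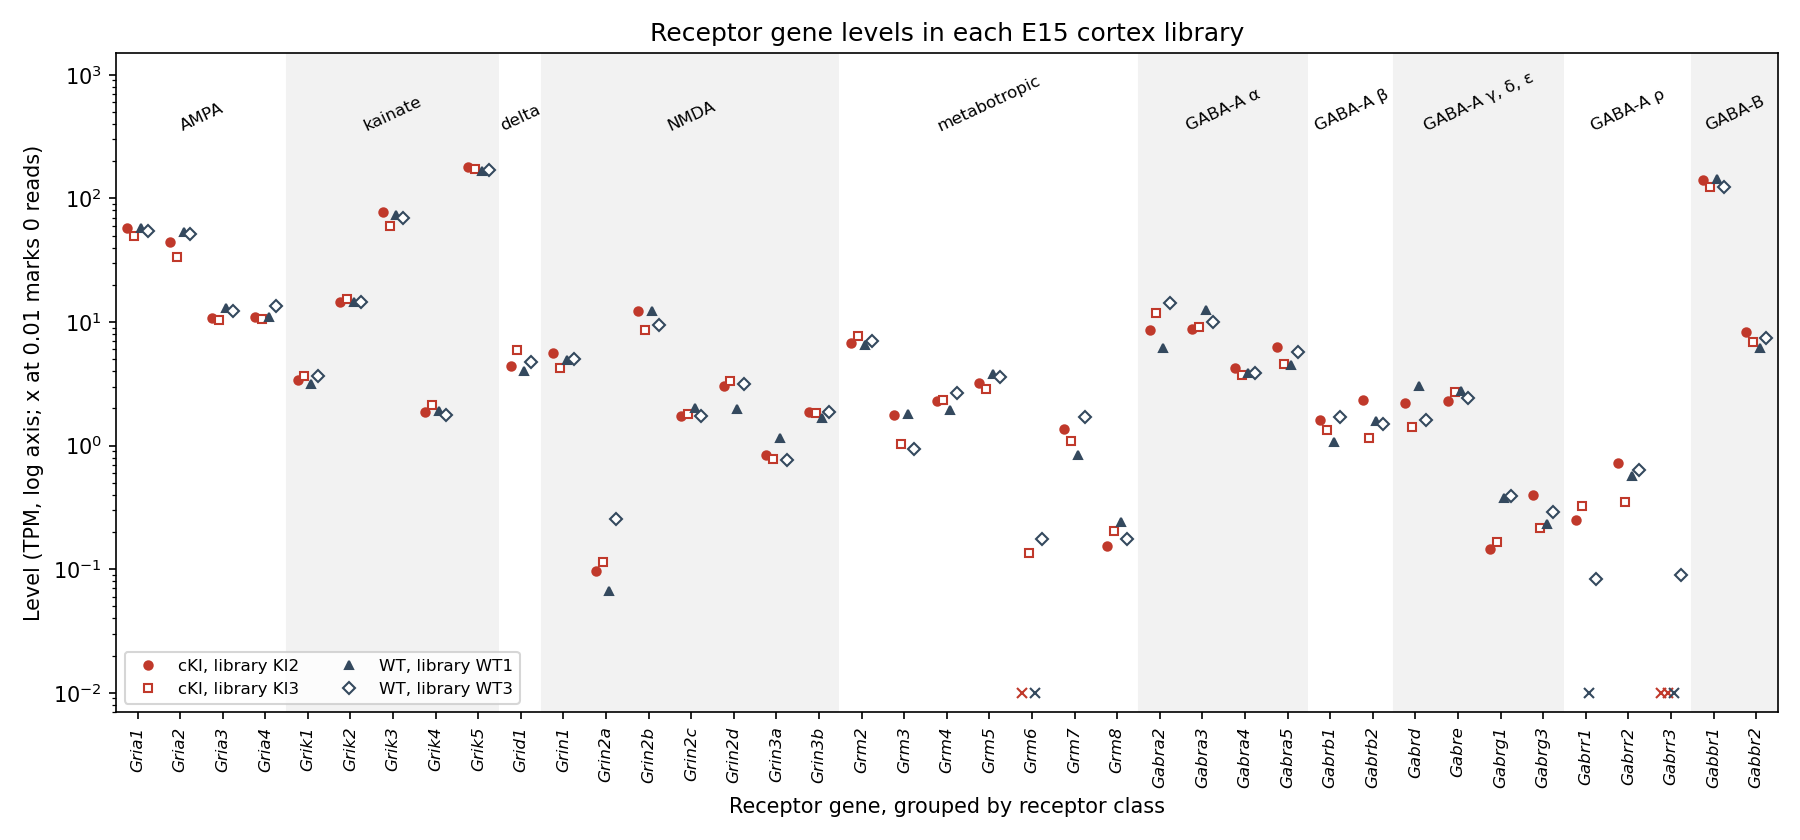
Level of 39 of the 44 receptor genes in TPM (log axis) in the 2 cKI f/+ libraries (red) and the 2 WT libraries (dark blue), with genes grouped by receptor class and crosses at the bottom for libraries with 0 reads. Grik5 and Gabbr1 stand above 100 TPM in each library, and the rho subunits of the GABA-A receptor lie under 1 TPM in each library.

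Each of the 15786 genes with enough reads was compared between cKI f/+ and WT mice by the quasi-likelihood test of edgeR, with Benjamini-Hochberg adjustment. Of the 44 receptor genes 40 were tested, and Grm6, Gabrr1, Gabrr2 and Gabrr3 had too few reads. At an adjusted p under 0.05, 0 of the 40 were called, where 0.12% of all tested genes were, the 5 tested sex-linked genes among them. DESeq2 and edgeR's likelihood ratio test also called 0. The adjusted p-values of the 40 genes lay between 0.881 and 0.997 in edgeR's quasi-likelihood test. At an unadjusted p under 0.05 there were 3 receptor genes, Gria2, Gria3 and Gabrg1, all lower in cKI f/+ mice, against 4.6% of tested genes in either direction and 2.34% lower. DESeq2 put 1 gene under that threshold.

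The 40 genes divided evenly, 20 above and 20 below their WT level, and their median log2 fold change was -0.01, against 0.00 over all tested genes. With each library left out, the median of the receptor genes lay between -0.17 and 0.054. In CPM (reads scaled to library size) both cKI f/+ libraries lay on the same side of both WT libraries for 8 of the 40, among them Gria2, Gria3, Gabra3, Gabrg1 and Grm5 on the lower side and Grik4 and Grik5 on the higher side. For Grik4 this rested on 58 reads in KI2 against 57 in WT1, and in TPM its groups overlapped. Over all tested genes this held for 34.1%, so the share among receptor genes, 20.0%, was not above the background. For 13 genes the 95% interval of the log2 fold change lay within 0.5 of zero on either side, and for 32 it lay within 1. The 8 wider ones included Gabrd, Grm3, Grm8, Grin2a, Gabrg1 and Gabrg3, so a change of that size is not excluded for them. In fits that each lacked 1 library, 25 of the 40 genes turned sign at least once, and 37 either turned or moved by over 1.5 times. The 3 others were Gria3, Grm5 and Gabrg1. Gria3 and Gabrg1 did not stay under an unadjusted p of 0.05 in any of these fits or in DESeq2.

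**Figure D2:**
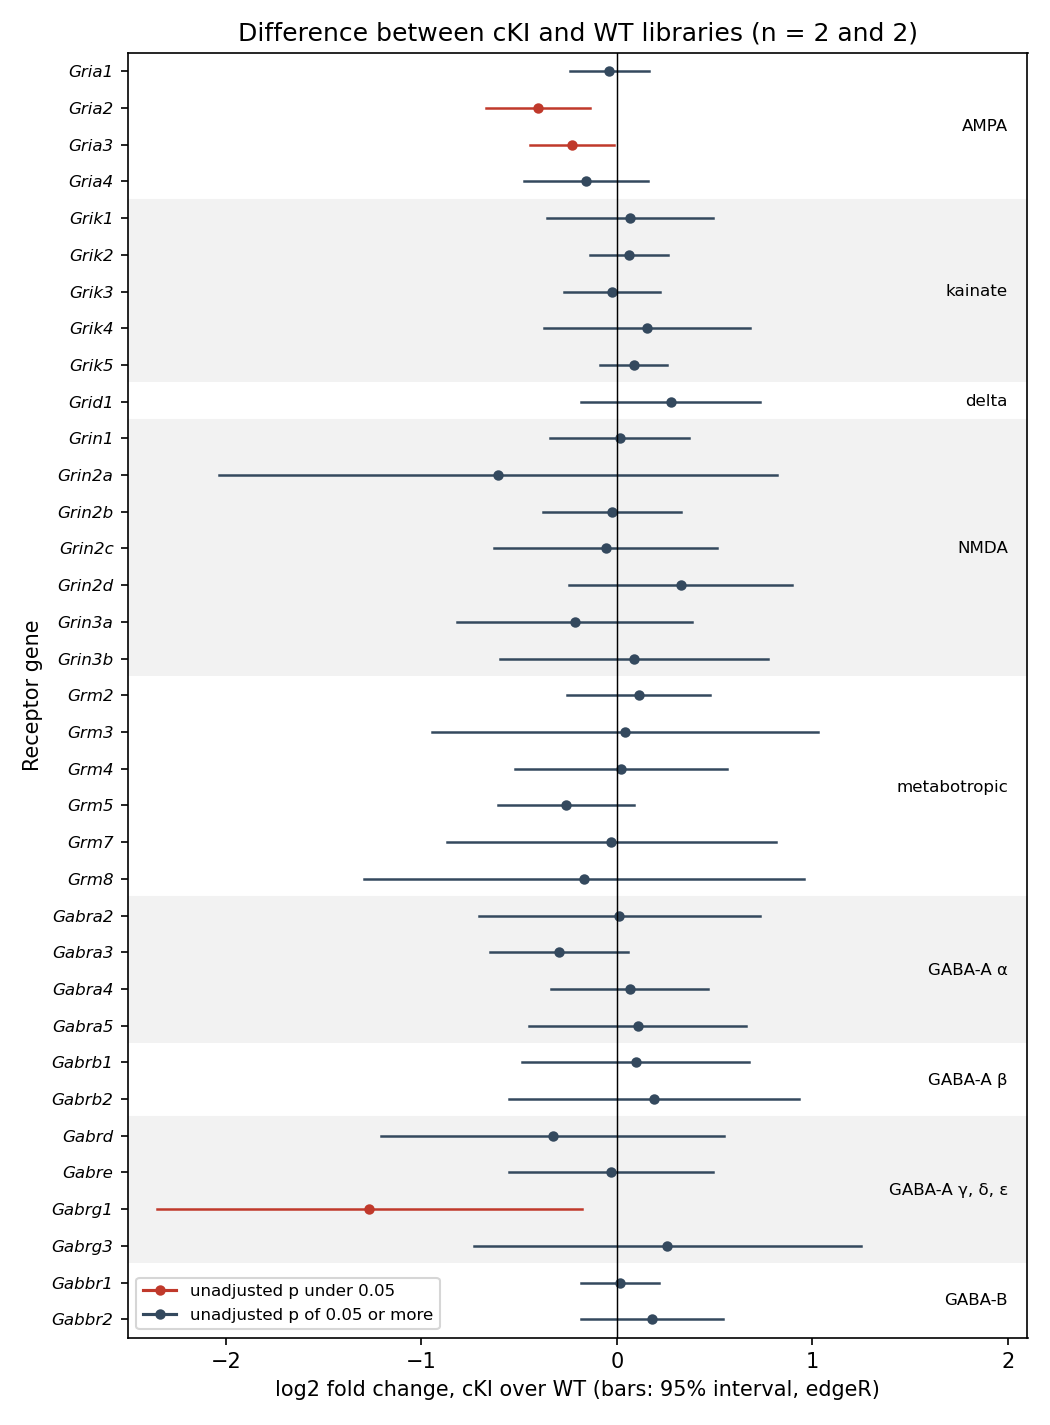
Log2 fold change of cKI f/+ over WT for 35 of the 40 tested receptor genes, with the 95% interval from edgeR as bars and n = 2 libraries per group. Gria2, Gria3 and Gabrg1 (red) have intervals below 0, and the remaining 32 intervals shown include 0.

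AMPA receptors carry most fast excitatory transmission, and their GluA2 subunit, encoded by Gria2, limits the passage of calcium. Gria2 (ENSMUSG00000033981; chromosome 3, 80681450 to 80802835 on the minus strand, GRCm38) had 3629 and 2833 reads in KI2 and KI3 and 4231 and 4163 in WT1 and WT3. This was 44.7, 33.7, 53.8 and 51.3 TPM. The WT libraries were close to each other, both cKI f/+ libraries were lower, and KI3 was the lowest. The log2 fold change was -0.40 (SE 0.12, 95% interval -0.67 to -0.14), with an adjusted p of 0.881 in edgeR's quasi-likelihood test, so the difference was not called. The size of the difference rested on KI3. Without KI2 the log2 fold change was -0.63 and passed the threshold with an adjusted p of 0.0359 in edgeR, and without KI3 it was -0.22. Over the 11 alternatives the adjusted p ranged from 0.0359 to 0.9995.

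Gria1, which encodes the GluA1 subunit, was at 57.9, 49.3, 57.4 and 54.4 TPM in KI2, KI3, WT1 and WT3. The groups overlapped, with a log2 fold change of -0.04 (SE 0.09), which was -0.16 without KI2 and 0.06 without KI3. Gria3, on chromosome X, had 559 and 553 reads in cKI f/+ and 651 and 627 in WT libraries, or 10.9, 10.4, 13.1 and 12.2 TPM. Its groups did not overlap, and the log2 fold change was -0.23 (SE 0.10, adjusted p = 0.969 in edgeR). Gria4 had 362, 363, 347 and 446 reads in the same order, with WT3 alone standing higher, and its log2 fold change was -0.16 (SE 0.14), which was -0.33 without WT1 and turned to 0.05 without WT3.

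The make-up of a receptor class can be given as each subunit's share of the class TPM, which does not depend on the scaling between libraries. Gria1 took 46.5% and 47.4% of AMPA subunit TPM in KI2 and KI3 and 42.5% and 41.4% in WT1 and WT3. Gria2 took 35.9% and 32.4% in KI2 and KI3, and 39.8% and 39.0% in WT1 and WT3. The groups did not overlap for either share, with Gria1 higher and Gria2 lower in cKI f/+ mice. With 2 libraries against 2, the two-sided exact permutation test cannot give a p below 0.333, which is the value both shares reach. When the longest transcript replaced the exon length, the share of Gria2 was 41.0%, 37.1%, 44.7% and 44.0% in the same order, again without overlap.

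Kainate receptors modulate release and excitability, and the subunits encoded by Grik4 and Grik5 form channels only together with those of Grik1, Grik2 or Grik3. Grik5 had 4846 and 4860 reads in cKI f/+ and 4365 and 4599 in WT libraries. Both cKI f/+ libraries were above both WT libraries by a small margin, with a log2 fold change of 0.09 (95% interval -0.08 to 0.26), which was 0.04 without WT1 and 0.14 without WT3. Grik3 had 3618, 2922, 3304 and 3233 reads in KI2, KI3, WT1 and WT3, so that the highest and the lowest library both belonged to cKI f/+ mice. Grik2 was nearly level at 14.5, 15.4, 14.5 and 14.6 TPM. Grik1 lay between 3.12 and 3.68 TPM and Grik4 between 1.77 and 2.14 TPM over the 4 libraries. Grik5 made up 64.9%, 68.1%, 64.4% and 65.7% of kainate subunit TPM and Grik3 most of the rest, with overlapping groups.

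The delta receptor genes are related by sequence to the other ionotropic subunits but bind cerebellins rather than opening to glutamate. Grid1 was at 4.43, 5.95, 3.98 and 4.73 TPM, with overlapping groups.

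NMDA receptors need the obligatory GluN1 subunit of Grin1 and, in the embryonic brain, typically contain the GluN2B subunit of Grin2b. Grin2b was at 12.3, 8.66, 12.3 and 9.46 TPM in KI2, KI3, WT1 and WT3. Each group held a higher and a lower library, and the gap within groups exceeded that between them (log2 fold change -0.03, SE 0.16). It was -0.31 without KI2, 0.20 without KI3, 0.14 without WT1 and -0.17 without WT3. Grin1 had 283, 224, 240 and 253 reads, and its groups overlapped, as they did for Grin2d at 3.02, 3.30, 1.96 and 3.14 TPM. Grin2a, the subunit that increases after birth, was low with 9, 11, 6 and 24 reads. Grin2c and Grin3b had between 28 and 51 reads and Grin3a between 0.77 and 1.16 TPM.

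Among the GluN2 subunits Grin2b held 71.7%, 62.4%, 75.3% and 64.8% of the TPM, and Grin2d 17.6%, 23.8%, 12.02% and 21.5%. The level of Grin3b is uncertain, because 32.1% of its exon bases overlap exons of Tmem259 on the opposite strand, a gene with between 2788 and 3066 reads, and the strand setting of the counting is not given in the sources used here. The same holds to a lesser extent for Grin1, where 13.5% of exon bases overlap the antisense gene Grin1os, although that gene had only 12 to 15 reads.

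**Figure D3:**
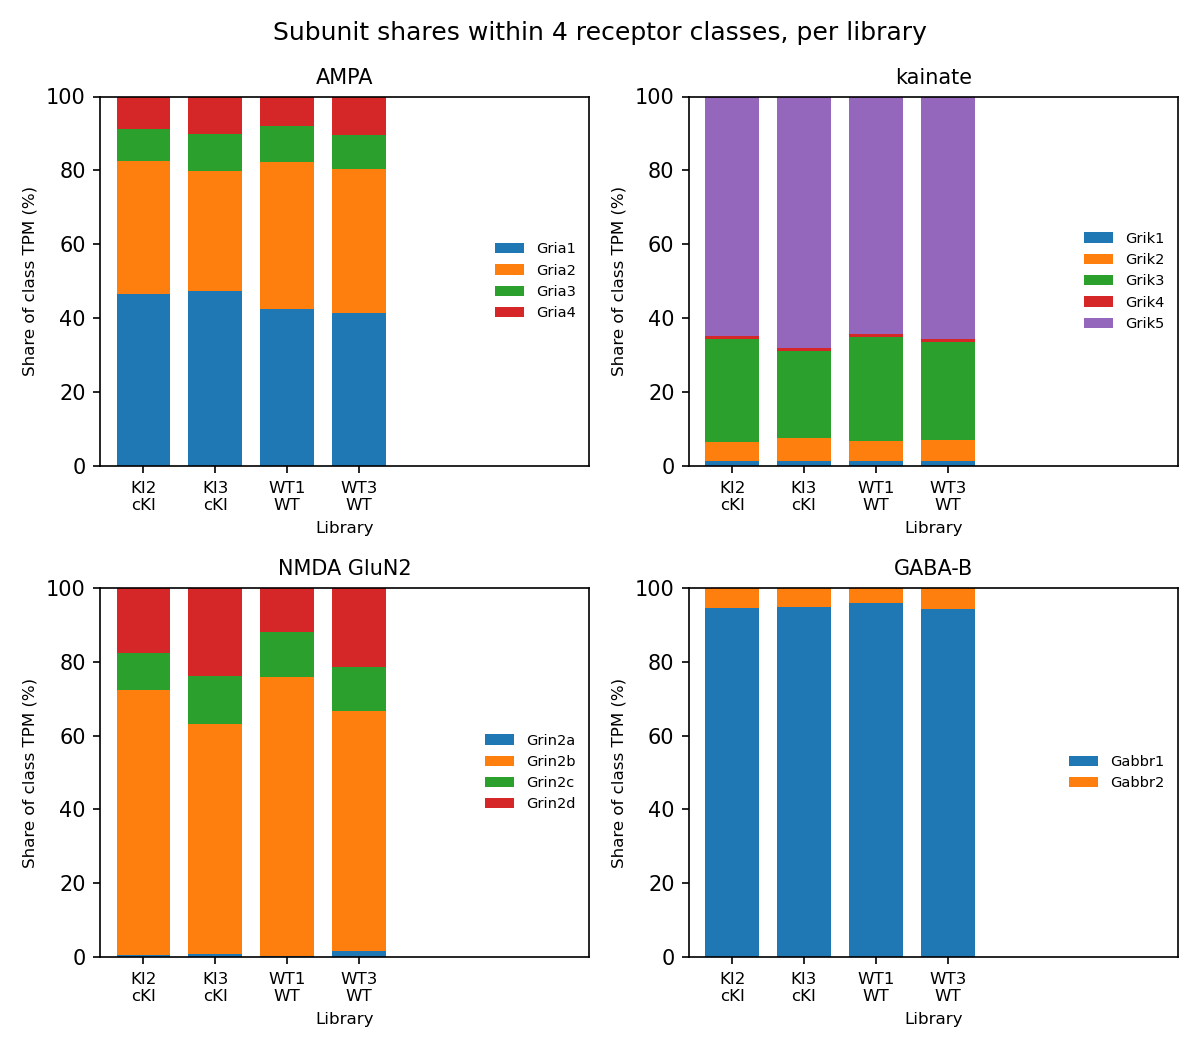
Share of each subunit in the summed TPM of 4 receptor classes, as stacked bars from 0 to 100% for the cKI f/+ libraries KI2 and KI3 and the WT libraries WT1 and WT3. Gria2 holds a smaller part of the AMPA bar in both cKI f/+ libraries, and Gabbr1 holds most of the GABA-B bar in each library.

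Of the metabotropic glutamate receptors Grm2, a Gi-coupled receptor often found on presynaptic terminals, was highest at 6.77, 7.70, 6.55 and 7.05 TPM, with overlapping groups. Grm5, which signals through Gq and is present on cortical progenitors, had 171 and 158 reads in cKI f/+ and 196 and 191 in WT libraries. The groups did not overlap, and the log2 fold change was -0.26 (SE 0.16, adjusted p = 0.969 in edgeR). Grm4, on chromosome 17, was at 2.31, 2.32, 1.95 and 2.66 TPM, with the cKI f/+ libraries between the WT libraries. Grm3 and Grm7 lay between 0.84 and 1.82 TPM, Grm8 between 0.15 and 0.24 TPM, and Grm6, a receptor of retinal bipolar cells, had 0, 4, 0 and 5 reads.

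GABA-A receptors usually contain 2 alpha, 2 beta and 1 further subunit, commonly gamma. Among the alpha subunits, Gabra2 had 346 and 485 reads in KI2 and KI3 and 240 and 565 in WT1 and WT3. The WT libraries were thus the lowest and the highest of the 4, and the cKI f/+ libraries lay between them. The gap between the WT libraries was 2.38-fold after normalization, and of the 10036 tested genes above 10 CPM 14 had a wider gap between WT1 and WT3. The log2 fold change was 0.01 (95% interval -0.70 to 0.73), -0.48 without WT1, 0.77 without WT3, 0.21 without KI2 and -0.23 without KI3, so its sign depends on which library is left out.

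The neighbours of Gabra2 in its cluster on chromosome 5 did not all share this gap. From 70751047 to 72149037 the cluster holds Gabrg1, Gabra2, Gabra4 and Gabrb1. The ratio of WT3 to WT1 was 1.08 for Gabrg1, 1.04 for Gabra4 and 1.67 for Gabrb1, which had 75 and 124 reads in WT1 and WT3. Commd8, the next tested gene beyond the cluster, had a ratio of 1.07.

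Gabra3, on chromosome X, encodes an alpha subunit that is prominent before birth and had 180 and 195 reads in cKI f/+ and 249 and 203 in WT libraries. The groups did not overlap, though KI3 and WT3 were close, and the log2 fold change was -0.30 (SE 0.16, adjusted p = 0.969 in edgeR), which was -0.15 without WT1 and -0.43 without WT3. Gabra5 was at 6.31, 4.53, 4.52 and 5.67 TPM and overlapped between groups. Gabra4 lay between 3.7 and 4.25 TPM, and of the beta subunits Gabrb1 and Gabrb2 lay between 1.07 and 2.32 TPM. Together Gabra2 and Gabra3 made up most of the alpha subunit TPM: 30.5%, 40.0%, 22.5% and 41.5% for Gabra2 and 30.9%, 31.3%, 45.5% and 29.1% for Gabra3.

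Gabrg1 was low in all libraries, with 6 and 7 reads in cKI f/+ and 15 and 16 in WT libraries, or 0.146, 0.164, 0.377 and 0.390 TPM. The libraries of each group were close and the groups did not overlap. The log2 fold change was -1.27 (SE 0.48, 95% interval -2.35 to -0.18, adjusted p = 0.969 in edgeR), and with each library left out in turn it lay between -1.36 and -1.19. Gabrg3 had 25, 14, 14 and 18 reads. Gabrd, found outside synapses, had 33, 22, 44 and 24 reads, and Gabre, on chromosome X, had 57, 69, 66 and 60 reads, each with overlapping groups. The rho subunits, known from the retina, had at most 8 reads in any library, and Gabrr3 did not exceed the floor of 3 counts.

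GABA-B receptors pair the 2 subunits of Gabbr1, which binds GABA, and Gabbr2, which carries the complex to the surface. Gabbr1, on chromosome 17 from 37045966 to 37075067, had 5687 and 5203 reads in cKI f/+ and 5581 and 4982 in WT libraries. The groups overlapped closely (log2 fold change 0.02, 95% interval -0.18 to 0.22), and with each library left out the value lay between -0.08 and 0.10. Gabbr2 was at 8.25, 6.85, 6.15 and 7.37 TPM, with overlapping groups and a log2 fold change of 0.18 (SE 0.16), which was 0.03 without KI2 or WT1, 0.30 without KI3 and 0.35 without WT3. Gabbr1 made up between 94.3% and 95.9% of the TPM of the pair in the 4 libraries.

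Besides their products the genes share position. Of the 16 GABA-A genes 14 lie in 5 clusters, among them the one on chromosome 5 with 4 genes, Gabrr2 and Gabrr1 on chromosome 4, and Gabre and Gabra3 on chromosome X. Levels differed widely within a cluster: on chromosome 5 Gabra2 averaged 10.2 TPM and Gabrg1 0.269 TPM. Gabra4 and Gabrb1 start head to head and share 46 exon bases on opposite strands.

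The 250 bases before a transcription start of RefSeq on GRCm38.p6 were found for 29 of the 44 genes. For Grin2d this start lies inside the gene, 11697 bases from the start in the table, for Gabrb2 it lies 683 bases away, and for the others at most 192. Those without a match include Gria1, Gria3, Grid1, Grik1, Grin2a, Grin2b, Grin3a, Grm4, Grm5 and Gabrd. The median CG dinucleotide count of the 29 was 12 and the median GC content 62.4%, against 14 and 58.8% over 12830 protein-coding genes of the table. The motif GGGCGG on either strand was in 55.2% of the 29 and 54.6% of the 12830, and TATAAA on the strand of the gene in 6.90% and 4.64%. Among the 29, the 11 genes of at least 5 TPM had a median of 16 CG dinucleotides and the 7 genes under 1 TPM a median of 4, with ranges from 0 to 42 and from 1 to 29 that overlap. Of the 3 genes of lowest unadjusted p, Gria2 and Gabrg1 have a match and are printed to show an abundant and a scarce transcript. Grik3 is added as the sequence with the most CG dinucleotides. Each runs 5′ to 3′ on the strand of the gene, with CG in capitals, for Gria2 19 times in chr3:80802836-80803085 (minus), for Gabrg1 once in chr5:70842618-70842867 (minus) and for Grik3 42 times in chr4:125490446-125490695 (plus).
Gria2: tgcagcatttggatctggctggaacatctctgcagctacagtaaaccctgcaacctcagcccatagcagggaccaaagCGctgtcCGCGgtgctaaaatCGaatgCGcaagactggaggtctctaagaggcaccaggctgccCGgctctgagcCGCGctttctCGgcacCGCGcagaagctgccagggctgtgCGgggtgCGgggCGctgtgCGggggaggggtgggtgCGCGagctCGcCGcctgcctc
Gabrg1: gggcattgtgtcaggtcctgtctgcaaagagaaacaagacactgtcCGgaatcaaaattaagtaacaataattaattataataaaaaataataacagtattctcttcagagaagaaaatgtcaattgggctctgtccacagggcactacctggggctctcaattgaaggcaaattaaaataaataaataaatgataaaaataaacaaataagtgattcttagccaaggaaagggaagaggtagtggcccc
Grik3: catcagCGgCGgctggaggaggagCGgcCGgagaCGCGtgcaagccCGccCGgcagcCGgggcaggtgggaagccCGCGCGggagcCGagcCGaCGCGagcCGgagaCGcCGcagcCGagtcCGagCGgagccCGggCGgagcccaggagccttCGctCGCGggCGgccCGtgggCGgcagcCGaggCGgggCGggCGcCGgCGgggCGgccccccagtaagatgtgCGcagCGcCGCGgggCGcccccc

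Genes that act with these receptors were grouped into 8 lists, of which 69 genes were tested. None was called by edgeR's quasi-likelihood test, and at an unadjusted p under 0.05 there were 3 higher and 4 lower in cKI f/+ mice, or 10.1%, against 4.6% of all tested genes. Their median log2 fold change was 0.00. For 60 of the 69 at least 1 left-out library turned the sign or moved the value by over 1.5 times. Of 14 auxiliary subunits of AMPA and kainate receptors, 1 was under that threshold: Neto2, a kainate receptor partner, had 1437 and 1287 reads in cKI f/+ and 1473 and 1664 in WT libraries (log2 fold change -0.23, SE 0.10, adjusted p = 0.969 in edgeR; -0.14 without KI3 and -0.13 without WT3). Cacng7 and Cnih2 came next, at -0.12 and 0.09. Cnih2, at 668, 642, 600 and 651 TPM, was the most abundant of the list. The groups did not overlap for Neto2 and overlapped for Cnih2.

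Of the 7 transporters and enzymes of GABA metabolism, Slc6a11, a GABA transporter, had 172 and 147 reads in cKI f/+ and 202 and 252 in WT libraries (log2 fold change -0.54, SE 0.18, adjusted p = 0.969 in edgeR; -0.36 without WT3). Gad2 was at -0.16. The chloride exporter Slc12a5 (KCC2), whose increase marks the maturation of GABA signaling, had 278 and 300 reads in cKI f/+ and 201 and 230 in WT libraries. Its groups did not overlap, and the log2 fold change was 0.39 (SE 0.14, adjusted p = 0.969 in edgeR). The importer Slc12a2 (NKCC1) was at 575, 568, 602 and 654 reads, lower in both cKI f/+ libraries, with a log2 fold change of -0.16 (SE 0.10), or -0.09 without WT3. In TPM the importer exceeded the exporter in each library.

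Among genes of glutamate synthesis and transport, the vesicular transporter Slc17a7 had 2509 and 2427 reads in cKI f/+ and 2044 and 2157 in WT libraries (log2 fold change 0.21, SE 0.08, adjusted p = 0.969 in edgeR). The glutamine transporter Slc38a2 had 4065 and 3689 against 4368 and 4397 reads (log2 fold change -0.20, SE 0.08, adjusted p = 0.969 in edgeR; -0.31 without KI2 and -0.12 without KI3). For both the groups did not overlap, on opposite sides. Among the cerebellins and related ligands of delta receptors, Cbln2 had 80, 160, 221 and 162 reads in KI2, KI3, WT1 and WT3 and Cbln4 12, 24, 8 and 7, with log2 fold changes of -0.70 (SE 0.28) and 1.22 (SE 0.52), and C1ql1 was at 0.44. For Cbln2 KI2 was lowest and KI3 was close to WT3, and the value was -0.32 without KI2 and -1.27 without KI3. That of Cbln4 was 0.66 without KI3.

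The scaffold proteins of excitatory synapses had 20 tested genes, 14 higher and 6 lower, with 0 under an unadjusted p of 0.05. Shank1, Homer1 and Camk2b had the smallest p, with log2 fold changes of 0.16, -0.23 and 0.22. Inhibitory synapse and GABA-B partners had 9 tested genes and likewise 0, led by Kctd12, Nlgn2 and Kctd8 at -0.32, 0.10 and -0.27. Of the related subunits that the choice of genes leaves out, 3 were tested, Glrb, Gabrq and Glra2, at -0.21, 0.06 and -0.01. The glycine receptor subunit Glra2, at 31.7, 30.2, 26.7 and 36.4 TPM, was the most abundant of these.

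The tissue was checked against markers. The 8 genes of dorsal telencephalon, led by Neurod6, summed to 3781, 3627, 3880 and 3765 TPM in KI2, KI3, WT1 and WT3, and of the 5 markers of other brain regions in the table En2, Gbx2 and Pax2 did not exceed 3 counts, while Lhx9 had 490, 619, 399 and 512 reads and Tcf7l2 140, 162, 207 and 176, so RNA from outside the telencephalon is not excluded. Several lists of cell type markers held genes at an unadjusted p under 0.05, and the sums of some did not overlap between groups. None of these genes was called, and the part of the cell types in the receptor values was not tested. Choroid plexus markers summed to 21.5, 165, 1.51 and 5.02 TPM, led by Ttr with 116, 956, 0 and 4 reads, while Kl was at or under 3 counts in each library. Of 4 tested choroid plexus genes, 2 had an unadjusted p under 0.05, both higher in cKI f/+ mice. KI3, the library lowest in Gria2, was thus the one with most choroid plexus RNA.

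Meningeal markers summed to 9.17, 8.54, 4.40 and 5.06 TPM, led by Col3a1, with 4 of 5 tested genes higher at an unadjusted p under 0.05. Blood markers summed to 2183, 1653, 2278 and 2310 TPM, led by Hbb-bs, with 3 of 6 lower by the same measure. Over all tested genes, 4.6% had an unadjusted p under 0.05 in either direction and 2.34% were lower. Upper-layer neuron markers had 3 of 6 lower (median log2 fold change -0.24). Their sum of 713, 726, 731 and 697 TPM does not show this, because most of it is Lhx2, which went the other way (log2 fold change 0.18). Deep-layer markers had 1 of 6 lower (median -0.14) and summed to 922, 837, 1023 and 857 TPM, led by Fezf2. The 8 pan-neuronal markers had 0 under that threshold, with 7 lower and a median of -0.07, and summed to 4257, 4070, 4143 and 4486 TPM, led by Tubb3. None of the genes of these lists was called.

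The remaining lists were radial glia and intermediate progenitors, with 0 of 8 and 0 of 6 genes under an unadjusted p of 0.05, and Cajal-Retzius cells, with 1 of 6 higher by that measure and all 6 above 0 in log2 fold change. Ventral telencephalon and interneurons had 1 of 12 higher and 1 lower and summed to 444, 517, 459 and 537 TPM. This sum was lower in KI2 and WT1, as Gabra2 was, but the order was not particular to this list. Radial glia markers, at 2441, 2603, 2455 and 2689 TPM, and the genes of GABA synthesis and transport, at 75.7, 80.4, 74.1 and 88.5 TPM, were also lower in KI2 and WT1. A link to Gabra2 was not tested. Striatal neurons had 1 of 8 lower. Oligodendrocyte precursors and endothelium had 0 of 5 and 0 of 6, and microglia 1 of 6 lower. In medians of the log2 fold change, radial glia stood at 0.04, intermediate progenitors at 0.03, Cajal-Retzius cells at 0.23, ventral telencephalon at -0.09, striatal neurons at -0.15, oligodendrocyte precursors at -0.30, endothelium at -0.07 and microglia at -0.26.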

How the data were processed

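RNA of E15 cortex was sequenced on an Illumina HiSeq instrument. The authors deposited unnormalized counts of reads on each gene for 2 cKI f/+ and 2 WT libraries. The submitters' processing notes name TopHat2 2.0.12, Bowtie2 2.2.3, HTSeq 0.6.0 and the build mm9, while the positions in the table are those of GRCm38 for 40 of the 44 genes (GENCODE M21). Further columns hold the authors' own comparison and were not used. Columns were assigned to a group, not to single labelled samples, because the labels number the samples differently (WT-3, WT-6, NF-2 and NF-7). The notes speak of triplicates, while 2 libraries per group are deposited.

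Counts were filtered with filterByExpr, normalized by TMM and tested in R 4.3.3 with the quasi-likelihood test of edgeR 4.0.16 (Benjamini-Hochberg over all tested genes, threshold 0.05, SE as log2 fold change over the square root of F), after a test on simulated counts. The alternatives were a likelihood ratio test in edgeR, DESeq2 1.42.0, other filters and normalizations, a table without the sex chromosomes, and fits without 1 library at a time. The floor was 3 counts, between 0.166 and 0.172 CPM, and covers counting error only. TPM used the union of exons. Replicates were not copies, since the chi-square per degree of freedom was 5.63 between cKI f/+ and 7.49 between WT libraries.

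Members and lists were chosen with earlier results of these data known. Some genes are left out of text and figures. Named with values are otherwise members averaging at least 5 TPM, those at an unadjusted p under 0.05, those on chromosomes X and 17, members not exceeding 3 counts in any library (by name), and, of partner lists, called genes or otherwise the 3 of smallest p. Other genes were named after their values were seen.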

Additional observations from a re-analysis of the deposited data

How the results depend on the processing

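The number of receptor genes called was 0 under DESeq2, the likelihood ratio test, both other normalizations, both other filters and removal of chromosomes X and Y. It was 3 at an unadjusted p under 0.05, and between 0 and 1 with each library left out, the 1 being Gria2 without KI2. The number of receptor genes at an unadjusted p under 0.05, 3, was 1 with DESeq2 and between 0 and 5 with each library left out. Over all genes 19 were called. With the likelihood ratio test this became 54, with the filter at 10 counts 6, without the sex chromosomes 11, at an unadjusted p under 0.05 726, and between 46 and 71 with each library left out. Filtering at 10 counts and leaving out sex chromosomes test fewer genes. Of the 19 called genes, 1 sex-linked gene was higher and 4 were lower in cKI f/+ mice, and leaving out the sex chromosomes removes these. The filter at 10 counts removes Xist and Kdm5d, whose reads in WT and in cKI f/+ libraries, respectively, lie under it. The cause of the other changes was not tested.

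The median log2 fold change of the receptor genes tested lay between -0.17 and 0.054 with each library left out. Of 205 log2 fold changes of receptor genes followed under the alternatives, 190 kept their direction and stayed short of the threshold, 1 passed it and 14 turned sign, all 14 with a library left out. These ranged from -0.080 to 0.095 for Gabbr1, -0.48 to 0.77 for Gabra2, -0.15 to 0.32 for Gabra5, -0.16 to 0.073 for Gabre, -0.16 to 0.061 for Gria1, -0.33 to 0.045 for Gria4, -0.22 to 0.14 for Grik3, -0.31 to 0.20 for Grin2b and -0.21 to 0.30 for Grm4, and the cause was not tested. In these fits the lone library of a group is assumed to vary like the other group.

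With the longest transcript in place of the union of exons, 16 genes again averaged at least 5 TPM, and Grin1 went from 4.94 to 8.58 TPM and Gabra5 from 5.26 to 4.49 TPM. The mean share of Gria2 among AMPA subunits was 36.8%, 41.7% with the longest transcript and 57.6% from raw counts, and that of Grik5 among kainate subunits 65.8%, 69.0% and 51.1%. No paired analysis was possible because the columns of the groups share fewer than 2 replicate numbers.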
